A study of Drosophila melanogaster with 15 samples.

Results

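Cytochrome P450 genes were taken as the probesets whose annotated gene symbol starts with Cyp followed by a digit. The array held 83 such probesets. Of these, 2 (Cyp1 and Cyp40) carry the same letters but belong to cyclophilins, a family of peptidyl-prolyl isomerases, and 1 was annotated to both copies of Cyp12d1, so that neither copy could be read from it. The remaining 80 probesets each named 1 P450 gene, out of 13402 genes that had a probeset with 1 symbol, and no P450 gene had more than 1 such probeset. P450 enzymes of ecdysone synthesis that go by other names, such as dib, sad, shd, spo and spok, are described with a separate list.

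RNA of whole heads of Drosophila melanogaster was hybridized to 15 Affymetrix Drosophila Gene 1.0 ST arrays, 5 for each of 3 genotypes. The elav/v105975 flies carried the elav-Gal4 driver, which is selective for neurons, together with v105975, a UAS transgene that makes an RNAi hairpin against Clic, the gene of the chloride intracellular channel. The elav/+ flies had the driver without the hairpin, and the v105975/+ flies had the hairpin transgene without the driver. Neither age nor sex of the flies was stated, and the hairpin comes from a single transgene. The values are log2 intensities that the authors produced by RMA. No source says whether the 5 RNA samples of a genotype were separate collections, so each p-value reflects the variation among arrays, which may be technical. Array medians ranged from 6.16 to 6.24, and arrays of 1 genotype correlated with each other at a mean of 0.993 to 0.995. Both hairpin genotypes carried chromosomes of the v105975 stock that the elav/+ flies lacked, so in every comparison with elav/+ the transgene and the genetic background of its stock cannot be told apart. The v105975/+ flies also lacked the driver and the chromosomes of its stock, which the elav/+ flies carried. In that comparison the absence of these cannot be told apart from the presence of the hairpin transgene either. In whole-head RNA, fewer cells of a type and less RNA per cell cannot be told apart either.

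Cytochromes P450 are heme enzymes that insert oxygen into their substrates with electrons passed on by a reductase or, in mitochondria, by a ferredoxin. Insects use them to make and break down hormones such as ecdysone and to detoxify plant compounds and insecticides, and the fat body, gut and Malpighian tubules are the main detoxifying tissues. In flies the Cyp6, Cyp9 and Cyp28 families sit in the endoplasmic reticulum and include most of the enzymes studied in insecticide resistance, the Cyp4 family includes fatty acid hydroxylases, and the Cyp12 family is mitochondrial.

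The targeted gene was examined first. Clic averaged 9.16 ± 0.054 (SD, n = 5) in elav/+, 8.94 ± 0.083 in v105975/+ and 8.40 ± 0.085 in elav/v105975 heads. In limma it stood at 59.0% of the elav/+ level in elav/v105975 (95% confidence interval 54.5 to 63.9%, adjusted p = 5.48e-07) and at 85.9% in v105975/+ (adjusted p = 0.0269). The latter call no longer passed when elav/+ replicate 1, 3 or 4 or v105975/+ replicate 1 or 4 was left out, with an adjusted p of at most 0.0729.

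Relative to elav/+, P450 genes of heads with the hairpin transgene moved in both directions, and the median gene of the group hardly moved. In elav/v105975 heads 19 of the 80 genes passed an adjusted p of 0.05 in limma (23.8%), 6 higher and 13 lower, against 9.10% of all genes tested, 4.37% higher and 4.74% lower. In v105975/+ heads 17 passed (21.2%), 7 higher and 10 lower, against 5.75% of all genes, 2.63% higher and 3.13% lower. At an unadjusted p under 0.05 the P450 count was 32 in each comparison, against 22.8% of all genes in elav/v105975 and 18.4% in v105975/+. The median log2 fold change of the 80 genes was -0.01 in the former comparison and -0.0031 in the latter, and over all genes it was 0.00052 and 0.0087. The typical size of a difference, taken as the median without its sign, was 0.184 on the log2 scale for P450 genes and 0.0947 for all genes in elav/v105975, and 0.161 against 0.0826 in v105975/+. The 2 comparisons share the 5 elav/+ arrays, so they are given side by side and not as repeats of each other.

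The values of many of these genes had no range in common with elav/+. For 17 genes in elav/v105975 (21.2%, 6 higher and 11 lower) and 19 in v105975/+ (23.8%, 8 higher and 11 lower), all 5 arrays lay beyond all 5 elav/+ arrays, whereas 9.85% and 6.92% of all genes did so. At least 1.5-fold separated 8 of the called genes from elav/+ in elav/v105975 and 9 in v105975/+, and the background share for the same rule was 1.36% and 1.12%. Of 35 genes of the detoxifying glutathione S-transferases, 5 passed in elav/v105975 (14.3%) and 2 in v105975/+ (5.71%), and of 35 UDP-glycosyltransferase genes 5 (14.3%) and 3 (8.57%) passed. The differences between these shares and those of the P450 genes were not tested.

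**Figure D1:**
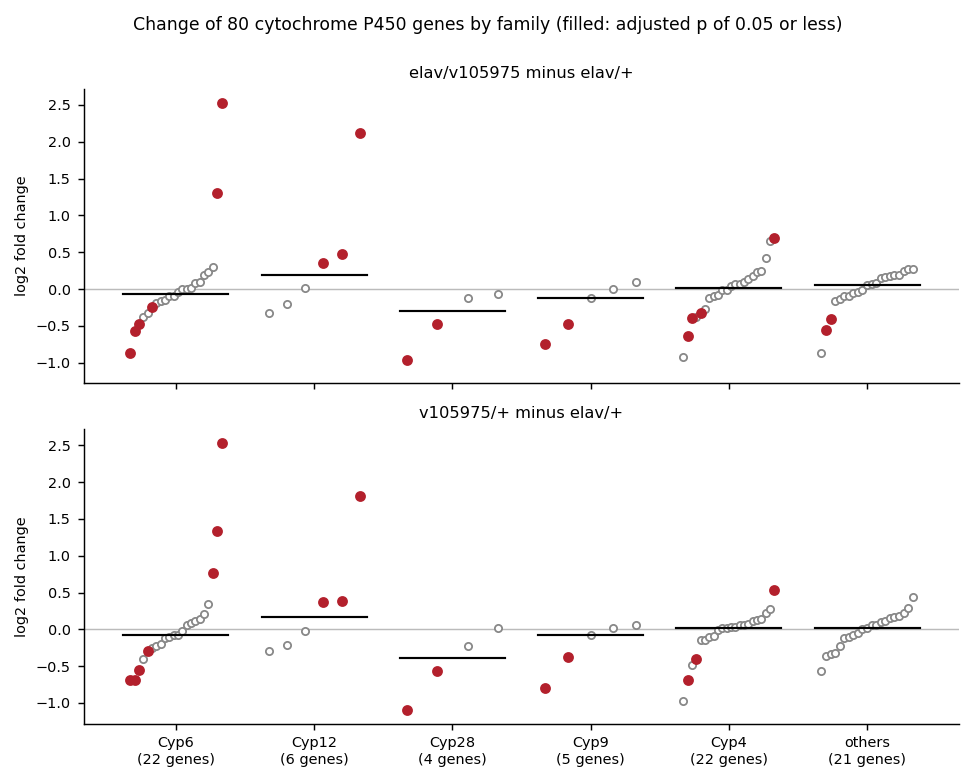
Log2 fold change against elav/+ (vertical axes) of each of the 80 P450 genes, grouped by family along the horizontal axis, for both hairpin genotypes, with filled points for an adjusted p of 0.05 or less. Called Cyp12 genes lie above 0 and called Cyp9 and Cyp28 genes lie below it, while the Cyp6 and Cyp4 families hold called genes on both sides.

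The probesets of P450 genes spanned the range of the array, from 2.40 (Cyp313a3) to 10.2 (Cyp6d5) in mean log2 intensity. A probeset's brightness also depends on its probes, so the values place a gene on the array and do not rank the genes by transcript number. Among the 80 genes, 13 lay in the dimmest 25% of all probesets, below 4.29, and 15 lay in the brightest 25%, above 7.88. The median over the Cyp6 family was 6.25, over Cyp12 also 6.25, over Cyp4 6.30, over Cyp9 7.11 and over Cyp28 7.31. Among the 21 genes of other families it was 4.66, and 7 of those 21 were in the dimmest 25%. The spread of a gene within a genotype had a median SD of 0.167 on the log2 scale, against 0.138 for all genes, and it ran from 0.0492 for Cyp6a20 to 0.608 for Cyp4d21. The calls were not limited to dim probesets, since 7 of the 19 called in elav/v105975 were in the brightest 25% and 2 were in the dimmest.

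The Cyp6 family held the gene with the largest difference, Cyp6a2. Of its 22 measured genes, 2 were higher and 4 lower in elav/v105975, and 3 were higher and 4 lower in v105975/+. These calls made up 27.3% and 31.8% of the family, against 9.10% and 5.75% of all genes. Cyp6a2, an enzyme inducible by foreign compounds that metabolizes several insecticides, measured 6.87, 6.91, 6.87, 6.56 and 6.70 on the elav/+ arrays. It measured 9.27, 9.54, 9.34, 9.22 and 9.24 in v105975/+ and 9.49, 9.22, 9.46, 9.33 and 9.03 in elav/v105975. Every array with the hairpin transgene lay far above every elav/+ array, and the ranges of the 2 hairpin genotypes overlapped. Cyp6a2 was 5.75-fold higher than in elav/+ in elav/v105975 (log2 fold change 2.52, SE 0.095, limma adjusted p = 2.30e-10) and 5.81-fold higher in v105975/+ (2.54, adjusted p = 2.14e-10).

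Cyp6w1, which is more abundant in a DDT-selected fly strain, was already bright in elav/+, at 8.61, 8.56, 8.71, 8.78 and 8.87. It rose to 9.87, 10.14, 10.24, 9.96 and 9.999 in v105975/+ and to 10.16, 9.81, 10.17, 10.01 and 9.90 in elav/v105975. Again the hairpin arrays formed 1 range above the elav/+ arrays. The difference was 2.47-fold in elav/v105975 (log2 1.31, SE 0.088, limma adjusted p = 3.36e-07) and 2.53-fold in v105975/+ (log2 1.34, adjusted p = 2.54e-07).

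Cyp6g1, whose overexpression gives resistance to DDT and neonicotinoids, went the other way. Its values were 8.85, 8.71, 8.88, 8.96 and 9.0 in elav/+, 8.09, 8.36, 8.40, 8.17 and 7.97 in v105975/+ and 8.34, 8.14, 8.38, 8.32 and 8.36 in elav/v105975. No hairpin array reached the lowest elav/+ array, and Cyp6g1 fell by 0.57 on the log2 scale in elav/v105975 (SE 0.083, limma adjusted p = 4.85e-04) and by 0.68 in v105975/+ (adjusted p = 1.66e-04). Cyp6t3, which takes part in ecdysone synthesis in the larval prothoracic gland, measured 5.03, 5.17, 5.43, 5.13 and 5.21 in elav/+. The v105975/+ arrays gave 4.49, 4.33, 4.72, 4.53 and 4.44 and the elav/v105975 arrays 4.43, 4.34, 4.59, 4.22 and 4.07. The hairpin genotypes thus shared a range that ended below elav/+, with a difference of -0.86 in elav/v105975 (SE 0.0999, limma adjusted p = 7.42e-05) and -0.69 in v105975/+ (adjusted p = 7.47e-04).

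Cyp6d2 was the P450 gene with the largest difference between the hairpin genotypes. It lay between 4.01 and 4.34 in elav/+, at 4.84, 4.50, 4.88, 4.98 and 5.38 in v105975/+ and at 4.43, 4.46, 4.34, 4.47 and 4.51 in elav/v105975. All v105975/+ arrays exceeded elav/+, and 1 of them, replicate 2, fell inside the narrow elav/v105975 range. Cyp6d2 was 1.70-fold higher in v105975/+ than in elav/+ (log2 0.77, SE 0.120, limma adjusted p = 0.00135), and its difference of 0.30 in elav/v105975 did not pass (adjusted p = 0.146), although it did in the fit of those 2 genotypes alone (adjusted p = 0.0331).

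Smaller decreases were called for Cyp6a23 and Cyp6a21, which lie next to other Cyp6a genes. Cyp6a23 lay between 7.25 and 7.62 in elav/+, 7.10 and 7.21 in v105975/+ and 7.13 and 7.27 in elav/v105975, with log2 differences of -0.24 (limma adjusted p = 0.0312) and, for v105975/+, -0.29 (adjusted p = 0.0164). Cyp6a21 ranged from 5.52 to 6.25 in elav/+, so that its elav/+ arrays overlapped with both hairpin genotypes, and its differences were -0.47 (adjusted p = 0.0493) and -0.55 (adjusted p = 0.0325). The calls of both genes depended on the fit. They also depended on single arrays, except that of Cyp6a23 in v105975/+, which passed without any 1 array (adjusted p up to 0.0482). With the 2 compared genotypes fitted alone, neither gene passed in elav/v105975 (adjusted p = 0.0783 for Cyp6a23 and 0.0769 for Cyp6a21) or in v105975/+ (0.0514 and 0.0695). In elav/v105975 the Cyp6a23 call was lost without elav/+ replicate 3, 4 or 5 or elav/v105975 replicate 1, 2 or 3 (adjusted p up to 0.0826). That of Cyp6a21 in elav/v105975 failed to pass when any of elav/+ replicate 2, 3 or 4, v105975/+ replicate 1, 2, 3 or 5 or elav/v105975 replicate 2, 3, 4 or 5 was left out (adjusted p up to 0.121). In v105975/+ the Cyp6a21 call did not survive the loss of elav/+ replicate 2, 3 or 4 or of v105975/+ replicate 1, 4 or 5 (up to 0.0872).

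Several bright or well-studied Cyp6 genes did not pass. Cyp6a20, which has been linked to male aggression and sits at 10.1, differed from elav/+ by -0.01 in elav/v105975 and -0.10 in v105975/+ (limma adjusted p = 0.954 and 0.238). Cyp6d5, the brightest probeset of the group, differed by -0.09 and -0.08 (adjusted p = 0.574 and 0.707). Cyp6a8 differed by -0.33 and -0.41 (adjusted p = 0.164 and 0.109), and Cyp6g2, known from the gland that makes juvenile hormone, by -0.38 and -0.23 (adjusted p = 0.0742 and 0.37). Without elav/+ replicate 1, Cyp6g2 passed in both (-0.51, adjusted p = 0.00475, and -0.36, adjusted p = 0.0458) and Cyp6a8 in v105975/+ (-0.50, adjusted p = 0.0353), and without elav/v105975 replicate 3 Cyp6a8 passed in elav/v105975 (-0.44, adjusted p = 0.0425). Cyp6a17, the dimmest member at 2.44, differed by 0.01 and 0.11.

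**Figure D2:**
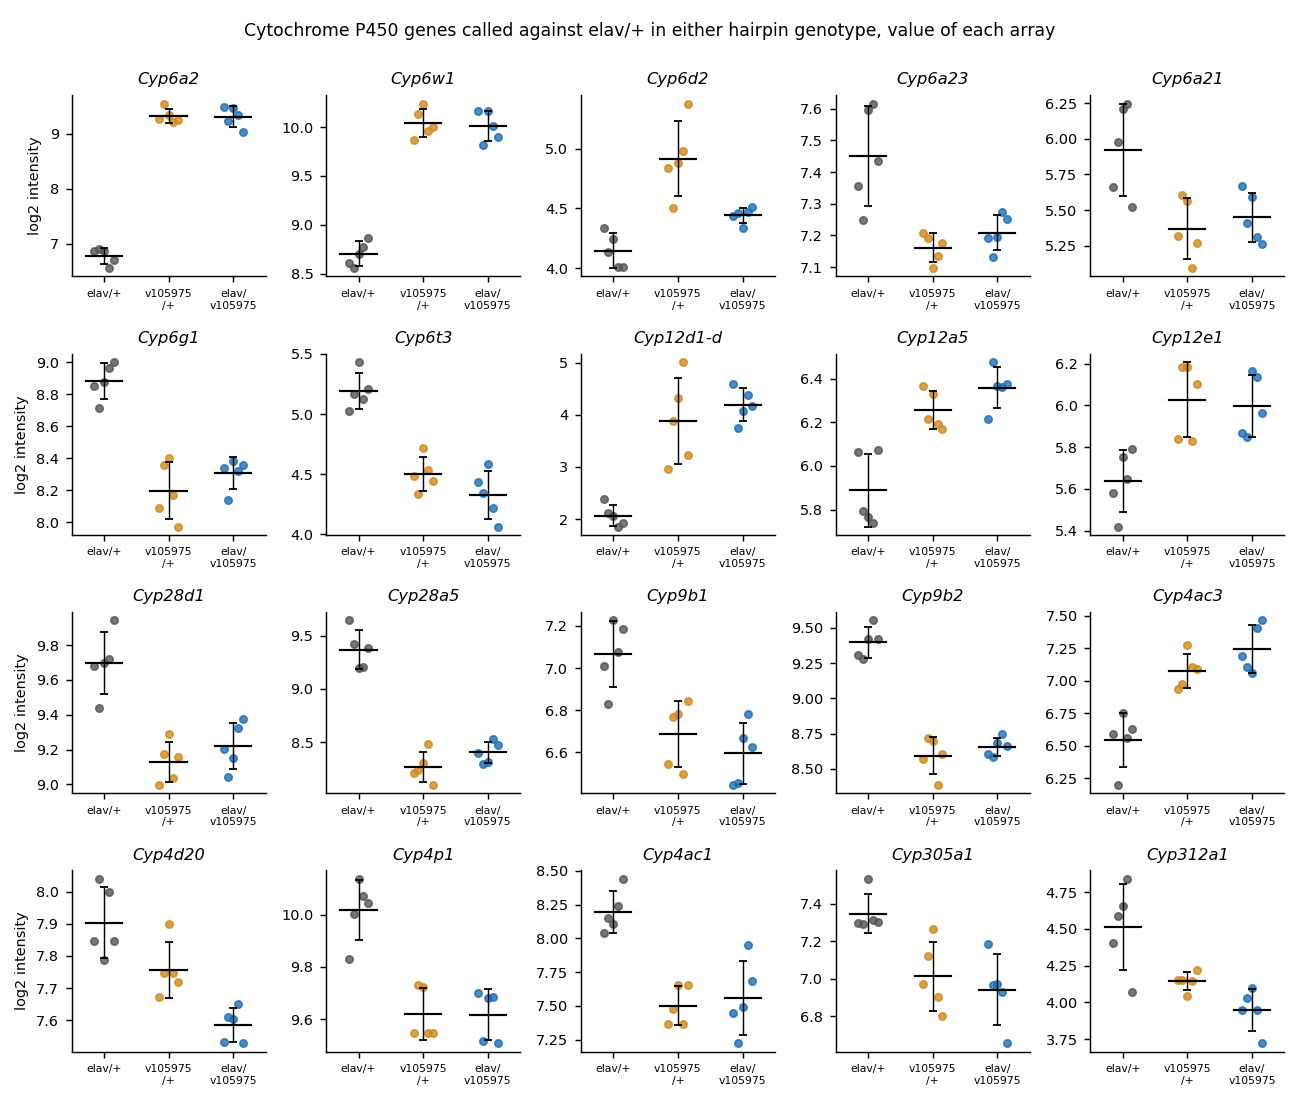
Log2 intensity (vertical axes) of every array, with 1 panel for each P450 gene called against elav/+ in either hairpin genotype and the 3 genotypes along the horizontal axis. Points are arrays, the long bar is the mean and the whiskers are 1 SD (n = 5). In the Cyp6a2 panel the elav/+ arrays end at 6.91 and the hairpin arrays start at 9.03, and in all panels but that of Cyp4d20 the v105975/+ and elav/v105975 ranges overlap.

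In the mitochondrial Cyp12 family 3 of 6 genes were higher than in elav/+ in each hairpin genotype. Of all genes, 4.37% (elav/v105975) and 2.63% (v105975/+) were called higher. Among the uncalled Cyp12 genes, Cyp12a4 and Cyp12c1 had values below elav/+ that did not pass the adjusted p. Cyp12d1-d is 1 of 2 nearly identical neighbouring genes whose overexpression has been tied to insecticide resistance. Its probeset gave 2.38, 2.11, 2.06, 1.86 and 1.92 in elav/+, 2.96, 3.88, 4.32, 5.01 and 3.23 in v105975/+ and 4.59, 3.74, 4.08, 4.39 and 4.16 in elav/v105975. The elav/+ arrays were at the bottom of the intensity scale, the hairpin arrays all lay above them, and the v105975/+ arrays were widely spread. The fitted log2 difference was 2.13 in elav/v105975 (SE 0.301, limma adjusted p = 3.99e-04) and 1.81 in v105975/+ (adjusted p = 0.00201). With elav/+ values this dim, these sizes are not a measure of the fold change in transcripts.

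The probeset annotated to both Cyp12d1-d and Cyp12d1-p was brighter and moved in the same direction. It measured 6.07, 5.65, 5.55, 6.11 and 5.63 in elav/+, 6.17, 6.72, 6.81, 6.74 and 6.91 in v105975/+ and 6.51, 6.34, 6.50, 7.15 and 7.02 in elav/v105975. All hairpin arrays exceeded all elav/+ arrays, by 0.90 on average in elav/v105975 (limma adjusted p = 0.00494) and 0.87 in v105975/+ (adjusted p = 0.00898). Because the copies are so alike, the share of each in either probeset is uncertain.

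The other called Cyp12 genes changed less. Cyp12a5 ranged from 5.74 to 6.07 in elav/+, from 6.17 to 6.37 in v105975/+ and from 6.22 to 6.48 in elav/v105975, a rise of 0.47 in elav/v105975 (SE 0.076, limma adjusted p = 0.00115) and 0.37 in v105975/+ (adjusted p = 0.00962). Its neighbour Cyp12a4, which gives resistance to lufenuron when overexpressed, differed by -0.21 and -0.22 and was not called (adjusted p = 0.0657 and 0.0714). Cyp12a4 passed in elav/v105975 when v105975/+ replicate 5 (0.0480) or elav/v105975 replicate 4 (0.0225) was left out, and in v105975/+ when the latter was (0.0452). It also passed in elav/v105975 with array weights (0.0352) and in both without the dimmest 25% of probesets (0.0431 and, in v105975/+, 0.0472). Cyp12e1 rose by 0.36 (adjusted p = 0.0299) and 0.39 (adjusted p = 0.0271), with all hairpin arrays above the elav/+ arrays. The Cyp12e1 call in elav/v105975 was lost without elav/+ replicate 1, 2 or 4 or elav/v105975 replicate 3 or 4 (adjusted p up to 0.0737), and the v105975/+ call when elav/+ replicate 1, 2 or 4 or v105975/+ replicate 2, 3 or 5 was left out (up to 0.0694). Cyp12b2, the brightest member, differed by 0.01 and -0.03, and Cyp12c1 by -0.32 and -0.29 (adjusted p = 0.116 and 0.209).

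The called genes of the Cyp28 and Cyp9 families were all lower. In the Cyp28 family 2 of 4 genes fell in each hairpin genotype, where 4.74% (elav/v105975) and 3.13% (v105975/+) of all genes were lower. Cyp28a5 measured 9.64, 9.42, 9.20, 9.20 and 9.38 in elav/+, 8.22, 8.24, 8.31, 8.48 and 8.10 in v105975/+ and 8.40, 8.30, 8.32, 8.53 and 8.48 in elav/v105975. The gap between elav/+ and the hairpin arrays was wider than the range within any genotype. Cyp28a5 had the largest called decrease of the 80 genes, 1.95-fold in elav/v105975 (log2 -0.96, SE 0.089, limma adjusted p = 9.81e-06) and 2.14-fold in v105975/+ (log2 -1.10, adjusted p = 3.54e-06).

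Cyp28d1, which contributes to nicotine tolerance, gave 9.68, 9.44, 9.70, 9.72 and 9.94 in elav/+, 9.0, 9.17, 9.29, 9.04 and 9.16 in v105975/+ and 9.20, 9.04, 9.15, 9.33 and 9.38 in elav/v105975. It was lower on every hairpin array, by 0.48 on average in elav/v105975 (adjusted p = 0.00350) and by 0.57 in v105975/+ (adjusted p = 0.00138). Its neighbour Cyp28d2 differed by -0.13 and -0.23 without passing (adjusted p = 0.350 and 0.0995), and Cyp28c1 on the X chromosome by -0.06 and 0.02.

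In the Cyp9 family 2 of 5 genes fell in each hairpin genotype, both of the neighbouring pair Cyp9b1 and Cyp9b2. Of all genes, 4.74% (elav/v105975) and 3.13% (v105975/+) were called lower. Cyp9b2 measured 9.30, 9.28, 9.42, 9.55 and 9.42 in elav/+, 8.57, 8.72, 8.69, 8.39 and 8.60 in v105975/+ and 8.60, 8.58, 8.68, 8.74 and 8.66 in elav/v105975. The hairpin genotypes overlapped with each other and were clear of elav/+. Cyp9b2 fell by 0.74 on the log2 scale in elav/v105975 (SE 0.068, limma adjusted p = 9.59e-06) and by 0.80 in v105975/+ (adjusted p = 6.41e-06).

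Cyp9b1 lay between 6.83 and 7.23 in elav/+, between 6.50 and 6.84 in v105975/+ and between 6.45 and 6.78 in elav/v105975. It fell by 0.47 on the log2 scale in elav/v105975 (adjusted p = 0.00488) and by 0.38 in v105975/+ (adjusted p = 0.0253), where its highest array touched the elav/+ range. The latter call did not pass when elav/+ replicate 3, 4 or 5 or v105975/+ replicate 1 or 4 was dropped (adjusted p up to 0.0702). Cyp9f2, the brightest member at 9.68, differed by less than 0.01 in elav/v105975 and by 0.01 in v105975/+, Cyp9c1 by -0.12 and 0.06, and Cyp9h1, the dimmest, by 0.09 and -0.08.

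The Cyp4 family, as large as Cyp6 with 22 measured genes, had 1 gene higher and 3 lower in elav/v105975 and 1 higher and 2 lower in v105975/+. These calls made up 18.2% and 13.6% of the family, against 9.10% and 5.75% of all genes. The median log2 fold change of the family was 0.02 in both comparisons. Cyp4ac1, Cyp4ac2 and Cyp4ac3 lie side by side on chromosome arm 2L and did not move as 1 unit. Cyp4ac1 measured 8.04, 8.15, 8.10, 8.24 and 8.44 in elav/+, 7.37, 7.47, 7.65, 7.36 and 7.65 in v105975/+ and 7.45, 7.22, 7.49, 7.95 and 7.68 in elav/v105975. Cyp4ac3 measured 6.59, 6.20, 6.75, 6.56 and 6.63 in elav/+, 6.94, 6.98, 7.27, 7.11 and 7.09 in v105975/+ and 7.19, 7.10, 7.06, 7.40 and 7.47 in elav/v105975. Neither gene had a hairpin array inside its elav/+ range, and the directions were opposite. Cyp4ac1 fell by 0.64 on the log2 scale in elav/v105975 (SE 0.118, limma adjusted p = 0.00329) and by 0.69 in v105975/+ (adjusted p = 0.00251). Cyp4ac3 rose by 0.70 (SE 0.105, adjusted p = 6.82e-04) and 0.53 (adjusted p = 0.00694). Cyp4ac2, between them, differed by 0.18 and 0.14 with overlapping arrays (adjusted p = 0.440 and 0.629).

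Cyp4p1, the brightest Cyp4 probeset, lay between 9.83 and 10.14 in elav/+ and between 9.51 and 9.73 on the 10 hairpin arrays. It fell by 0.40 on the log2 scale in each hairpin genotype (limma adjusted p = 0.00173 in elav/v105975 and 0.00254 in v105975/+). Cyp4d20 gave 7.85, 8.04, 7.79, 8.0 and 7.85 in elav/+, 7.67, 7.75, 7.90, 7.75 and 7.72 in v105975/+ and 7.53, 7.61, 7.60, 7.65 and 7.53 in elav/v105975. The elav/v105975 arrays were the lowest, below every array of the other genotypes, and v105975/+ overlapped with elav/+. Cyp4d20 fell by 0.32 on the log2 scale in elav/v105975 (adjusted p = 0.00322), and its difference of -0.15 in v105975/+ was not called (adjusted p = 0.181).

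The most variable P450 gene was Cyp4d21, known as sex-specific enzyme 1 for its expression in male heads. Its values were 5.88, 5.60, 5.77, 5.78 and 6.97 in elav/+, 4.63, 4.51, 5.02, 5.37 and 5.57 in v105975/+ and 4.63, 4.22, 4.80, 6.07 and 5.70 in elav/v105975. The elav/+ arrays were above all v105975/+ arrays but not above all elav/v105975 arrays, and the differences of -0.92 and -0.98 did not pass (limma adjusted p = 0.118 and 0.124). In elav/+ replicate 5 the gene lay far above the other 4 arrays, and without that array the differences were -0.67 and -0.74 (adjusted p = 0.25 and 0.268). Without elav/v105975 replicate 4 the former was -1.16 and passed (adjusted p = 0.0461). Cyp4e3 differed by 0.65 and 0.27 (adjusted p = 0.123 and 0.646), and the former passed without elav/+ replicate 1 (0.82, adjusted p = 0.0461). Cyp4g1, the oenocyte enzyme that makes cuticular hydrocarbons, differed by -0.27 and 0.08 (adjusted p = 0.426 and 0.893), and Cyp4g15 by -0.08 and 0.01. Cyp4p2, the dimmest member at 3.05, differed by 0.10 and 0.06.

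Among the 21 genes of other families, 2 were called in elav/v105975, both lower (9.52%, close to the 9.10% of all genes called). In v105975/+ limma called 0, against 5.75% of all genes, with 4 at an unadjusted p under 0.05. Cyp305a1 lay between 7.29 and 7.53 in elav/+, between 6.80 and 7.27 in v105975/+ and between 6.66 and 7.19 in elav/v105975. All hairpin arrays were below elav/+, with a decrease of 0.40 in elav/v105975 (adjusted p = 0.0181, but 0.0509 without elav/+ replicate 3). Its v105975/+ difference of -0.33 missed the threshold (adjusted p = 0.0610) and passed when v105975/+ replicate 3 (0.0283), elav/v105975 replicate 1 (0.0480) or elav/v105975 replicate 5 (0.0354) was left out. Cyp312a1, a dim probeset with a mean of 4.20, gave 4.41, 4.59, 4.66, 4.84 and 4.07 in elav/+ and fell by 0.56 on the log2 scale in elav/v105975 (adjusted p = 0.00562), where its arrays lay between 3.72 and 4.10 and overlapped with the lowest elav/+ array. It differed by -0.37 in v105975/+ (adjusted p = 0.0710, and 0.00533 without elav/+ replicate 5).

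Cyp304a1 had the largest difference of these other genes and was not called. It measured 6.06, 6.14, 5.87, 6.27 and 6.01 in elav/+, 5.38, 5.15, 4.71, 5.97 and 6.33 in v105975/+ and 5.14, 4.59, 4.80, 5.79 and 5.71 in elav/v105975. All elav/v105975 arrays lay below elav/+, by 0.86 on average, but both hairpin genotypes were widely spread (limma adjusted p = 0.0688 in elav/v105975, and 0.309 for the difference of -0.56 in v105975/+). The former passed when v105975/+ replicate 3 (adjusted p = 0.0451) or 5 (0.0418) was left out, and when elav/v105975 replicate 4 was (0.0478). It also passed in the fit of the 2 genotypes alone (0.0371), with the replicate block (0.0169), an intensity trend (0.0448) or array weights (0.0330), and without the dimmest probesets (0.0494). Cyp18a1, which inactivates ecdysone, differed by -0.04 and 0.12 (adjusted p = 0.900 and 0.699). Cyp313a1 and Cyp313a3, the brightest and the dimmest of these genes, differed by -0.09 and -0.02 in elav/v105975.

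Both genotypes carried the hairpin transgene in the comparison of elav/v105975 with v105975/+. Only elav/v105975 also carried chromosomes of the driver stock, so the driver and the genetic background of its stock cannot be told apart here. In limma 0 of the 80 P450 genes passed, against 0.328% of all genes, and 5 had an unadjusted p under 0.05 (Cyp6d2, Cyp6t1, Cyp4d20, Cyp313a5 and Cyp313a2), as did 8.51% of all genes. The count was 0 under every alternative tried except without v105975/+ replicate 2, where Cyp6d2 passed with a difference of -0.58 (adjusted p = 0.0229). With all arrays Cyp6d2 differed by -0.47 (95% confidence interval -0.73 to -0.22, adjusted p = 0.149). Clic itself was lower in elav/v105975 by 0.54 on the log2 scale (adjusted p = 1.02e-04).

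Confidence intervals show how far apart the hairpin genotypes could be for genes that were far from elav/+. The difference between elav/v105975 and v105975/+ was -0.01 for Cyp6a2 (95% confidence interval -0.22 to 0.19) and -0.03 for Cyp6w1 (-0.22 to 0.16). It was 0.11 for Cyp6g1 (-0.07 to 0.29), 0.14 for Cyp28a5 (-0.06 to 0.33) and 0.06 for Cyp9b2 (-0.08 to 0.21). These intervals do not reach the size of the same genes' differences from elav/+. For Cyp12d1-d the interval was wide, from -0.33 to 0.95 around 0.31.

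The 2 hairpin genotypes had no range in common for 3 P450 genes, 3.75% of the 80, and for 2.04% of all genes. Cyp4d1 was higher in elav/v105975 by 0.29 (adjusted p = 0.553), and 4 of its v105975/+ arrays carried the identical value 4.62. Cyp4d20 was lower by 0.17 (adjusted p = 0.349) and Cyp313a2, a dim probeset, was lower by 0.24 (adjusted p = 0.445). Any gene without overlap has an exact two-sided permutation p of 0.00794, the smallest that 5 against 5 arrays can give. For these genes that value therefore adds nothing to the lack of overlap.

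**Figure D3:**
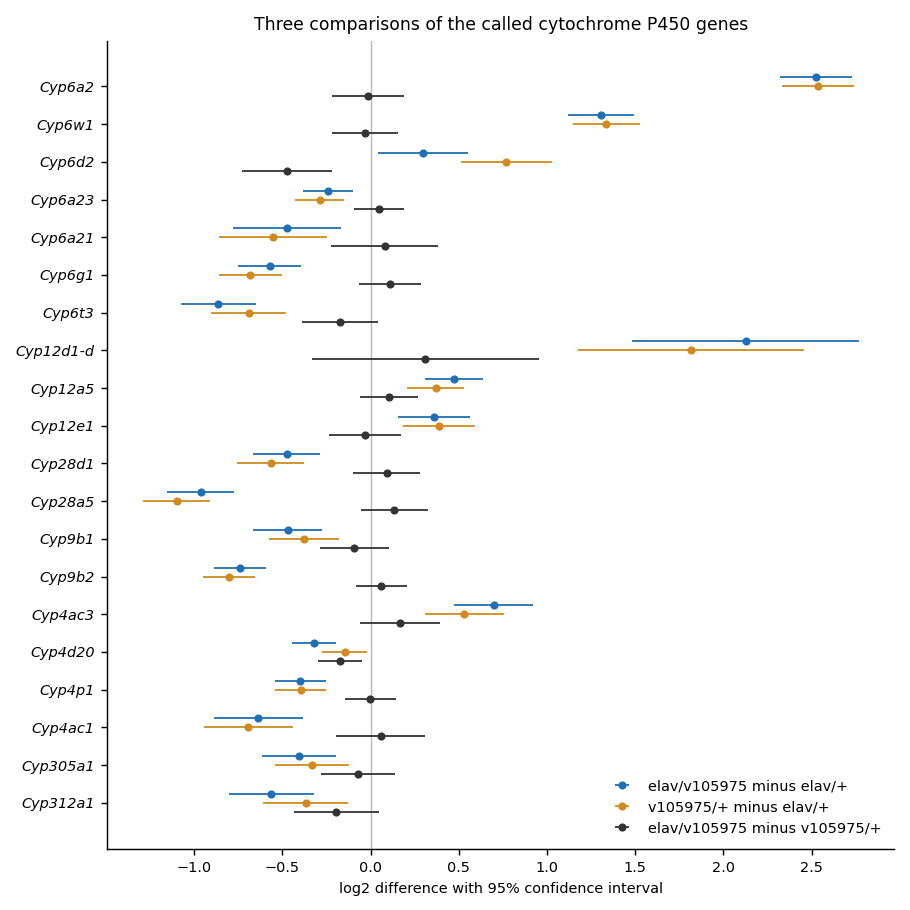
Log2 difference with its 95% confidence interval (horizontal axis) of each P450 gene called against elav/+ (vertical axis) in the 3 comparisons, 2 of which share the elav/+ arrays. The differences between elav/v105975 and v105975/+ lie near 0 for most genes, with Cyp6d2 the furthest from it at -0.47.

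P450 genes often sit beside each other, and by the RefSeq annotation of the Release 6 assembly 17 runs of neighbours with at most 3 other coding genes between them held 48 P450 genes, 46 of which were measured. Of the 19 genes called in elav/v105975, 12 lay in such runs, a share similar to that of the measured P450 genes, 46 of 80. In 1 run, that of Cyp4ac1, Cyp4ac2 and Cyp4ac3, calls had both directions. In the run of Cyp6g1, Cyp6g2 and Cyp6t3 on arm 2R the outer genes fell, and Cyp6g2 was not called. In a run of 9 genes on the same arm, from Cyp6a22 to Cyp317a1, Cyp6a23 and Cyp6a21 were called lower. Cyp28d1 was called beside an uncalled Cyp28d2, Cyp12a5 beside an uncalled Cyp12a4 and Cyp4p1 beside uncalled Cyp4p2 and Cyp4p3, whereas both genes of the Cyp9b1 and Cyp9b2 pair fell.

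**Figure D4:**
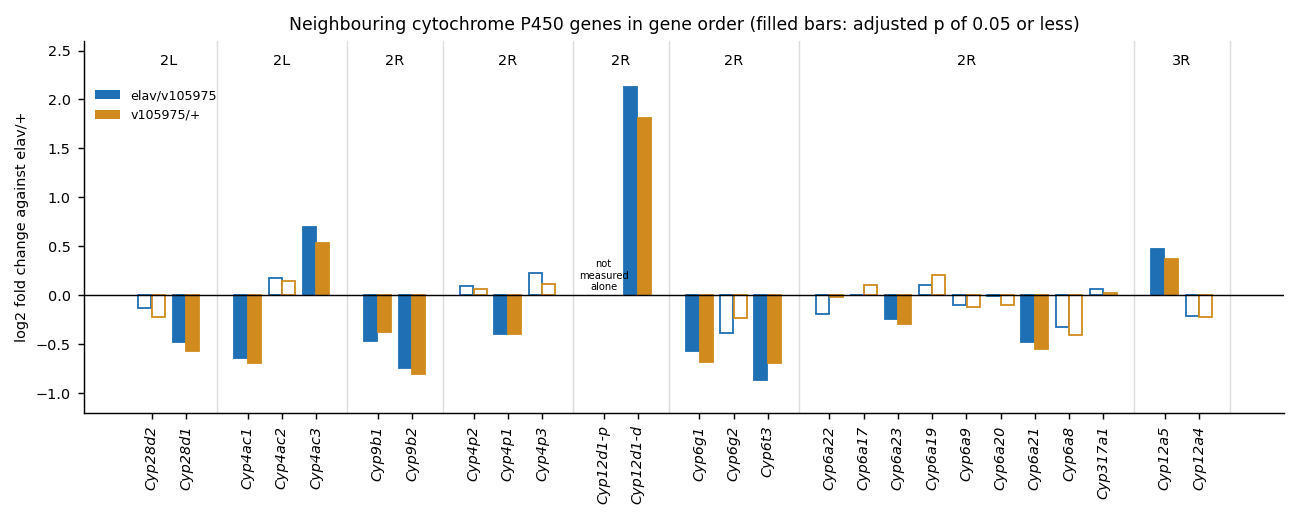
Log2 fold change against elav/+ (vertical axis) of P450 genes in the runs of neighbours that held a called gene, in gene order along the horizontal axis, with 1 bar for each hairpin genotype and filled bars for an adjusted p of 0.05 or less. The bars of Cyp4ac1 and Cyp4ac3 point in opposite directions, and those of Cyp9b1 and Cyp9b2 both point down.

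The called genes were also counted by chromosome arm, without a test between arms. On arm 2R 10 of 33 P450 genes passed in elav/v105975 (30.3%, against 9.91% of all genes on that arm) and 11 in v105975/+ (33.3%, against 6.56%). On arm 2L 4 of 12 passed in each, where 10.4% and 6.87% of all genes did. On arm 3R 2 of 15 passed in each, where 9.42% and 6.30% of all genes did. On arm 3L 3 of 6 passed in elav/v105975 (all genes 7.63%) and, by limma, 0 in v105975/+ (all genes 4.80%), although 5 of those had an unadjusted p under 0.05. On the X chromosome 0 of 14 passed limma in either comparison (2 and 0 at an unadjusted p under 0.05), against 7.63% and 4.11% of all X genes. Over the 28 alternatives the X count rose above 0 once, for Cyp4d1 in elav/v105975 without elav/+ replicate 5 (adjusted p = 0.0110).

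A list of 8 redox partner genes held electron donors of P450 enzymes together with genes related to cytochrome b5, and 6 were measured alone. P450 reductase (Cpr) and the mitochondrial adrenodoxin reductase (dare) were not among those 6. Whether Cyt-b5-r and CG6870 pass electrons to P450 enzymes cannot be read from these data. In each hairpin genotype 3 genes were lower by limma, namely Cyt-b5, CG6870 and Cyt-b5-r, where 4.74% (elav/v105975) and 3.13% (v105975/+) of all genes were lower, and the median log2 fold change of the list was -0.21 in elav/v105975 and -0.18 in v105975/+. Cyt-b5-r, a cytochrome b5-related gene, measured 11.41, 11.43, 11.58, 11.52 and 11.60 in elav/+, 10.69, 11.07, 11.28, 11.01 and 11.12 in v105975/+ and 10.85, 10.67, 10.88, 11.11 and 11.15 in elav/v105975. Every hairpin array was below elav/+, with a decrease of 0.58 (SE 0.105, limma adjusted p = 0.00277) and, in v105975/+, 0.47 (adjusted p = 0.0145).

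Cyt-b5, which hands electrons to microsomal P450 enzymes, fell by 0.22 on the log2 scale in each hairpin genotype (adjusted p = 0.0305 in elav/v105975 and 0.0458 in v105975/+), and CG6870, which encodes a cytochrome b5-like protein, fell by 0.27 (adjusted p = 0.00490) and 0.19 (adjusted p = 0.0451). The Cyt-b5 call in elav/v105975 was lost without elav/+ replicate 4 or 5 or elav/v105975 replicate 2 or 5 (adjusted p up to 0.0776). In v105975/+ that of Cyt-b5 was lost without any single array except v105975/+ replicate 3 and elav/v105975 replicate 5 (up to 0.115), and that of CG6870 without any except elav/+ replicate 1, v105975/+ replicate 5 and elav/v105975 replicate 4 (up to 0.113). With the replicate block Cyt-b5 passed in neither comparison (0.0682 and 0.0972) and CG6870 not in v105975/+ (0.0523), and in the fit of 2 genotypes neither passed in v105975/+ (0.0870 for Cyt-b5 and 0.0980 for CG6870). The ferredoxins Fdx1 and Fdx2, which serve mitochondrial P450 enzymes, differed by -0.20 and -0.11 in elav/v105975 and by -0.07 and -0.17 in v105975/+ and were not called.

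Of 8 genes of ecdysone synthesis 7 were measured, and their probesets were dim, with means of at most 5.47. In elav/v105975 the P450 gene spok was lower (-0.66, adjusted p = 0.00762) and in v105975/+ the P450 gene shd was lower (-0.46, adjusted p = 0.00176). The same genes differed by -0.28 (spok, in v105975/+) and -0.14 (shd, in elav/v105975) in the other genotype (adjusted p = 0.320 and 0.294). The remaining genes, nvd, spo, dib, sad and sro, were not called in either. Thus 1 of 7 was lower in each comparison, where 4.74% (elav/v105975) and 3.13% (v105975/+) of all genes were lower.

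All 10 transcription factors and partners listed as regulators of P450 genes were measured. One, maf-S, the small Maf partner of the stress factor CncC, fell by 0.42 on the log2 scale in elav/v105975 (SE 0.070, limma adjusted p = 0.00133). That is 1 call among 10 genes, close to the share of all genes called, 9.10% in elav/v105975 (5.75% in v105975/+). In v105975/+ limma called 0 of the 10, and maf-S differed by -0.22 (adjusted p = 0.0897, and 0.0440 without v105975/+ replicate 5). The gene of CncC itself (cnc) differed by -0.09 and -0.05, its inhibitor Keap1 by 0.03 and 0.03, and the xenobiotic receptor Hr96 by 0.06 and -0.05 (adjusted p from 0.351 to 0.893).

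Markers of tissues in or attached to the head were set beside these results. Of 8 measured fat body genes 3 were lower in elav/v105975, namely the yolk protein genes Yp1 (-0.28, adjusted p = 0.0355) and Yp3 (-0.59, adjusted p = 0.0253) and the lipophorin gene apolpp (-0.34, adjusted p = 0.0204), and limma called 0 in v105975/+, where the same genes differed by -0.25, -0.50 and -0.29 (adjusted p from 0.0585 to 0.0737). The summed linear intensity of the list ran from 27138 to 31550 in elav/+, from 20220 to 23826 in v105975/+ and from 17865 to 28533 in elav/v105975, and Fbp1 and Amy-p were in the dimmest 25%. The sums of elav/v105975 and elav/+ thus overlapped, whereas every v105975/+ sum lay below elav/+. The median log2 fold change of the 8 genes was -0.19 in elav/v105975 and -0.27 in v105975/+. Of all genes, 4.74% and 3.13% were called lower in these comparisons. Any part of these markers in the P450 differences was not tested.

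The other marker lists hold 5 to 7 measured genes each, and 9.10% of all genes were called in elav/v105975 and 5.75% in v105975/+. In elav/v105975 1 of 5 oenocyte genes was higher (FASN3), 1 of 6 antennal (Obp56d), 1 of 5 photoreceptor (trp), 1 of 6 glial (wrapper), 1 of 5 muscle (bt) and 1 of 5 Malpighian tubule genes (Irk2). Of 6 measured sex-related genes 2 were lower, Yp1 and Yp3, the same yolk protein genes counted in the fat body list. In v105975/+ the counts were 1 antennal (Obp56d), 2 photoreceptor (trp and trpl), 1 glial (wrapper) and 2 Malpighian tubule genes (Irk2 and CAH9), all higher. Limma called 0 of 7 neuronal and 0 of 6 gut genes in either comparison. The neuronal marker elav (mean 9.90) and the photoreceptor gene Arr2 (13.4) were bright. Summed over the 5 photoreceptor genes, the linear intensity ran from 24861 to 25506 in elav/+, from 27112 to 28128 in v105975/+ and from 26916 to 28153 in elav/v105975, and over the 6 antennal genes from 6094 to 6520, 6675 to 7381 and 6868 to 7564. Both sums were thus higher on every hairpin array than in elav/+, but a sum leans towards the brightest genes. The median log2 fold change in elav/v105975 and v105975/+ was 0.10 and 0.099 for the photoreceptor list and 0.011 and 0.098 for the antennal list. Oenocyte and Malpighian tubule sums lay above elav/+ on every v105975/+ array but overlapped with it in elav/v105975. Sums of the sex list lay below elav/+ (24397 to 28325) on every v105975/+ array (18152 to 21876) and overlapped with it in elav/v105975 (16257 to 25692). The neuronal, glial, muscle and gut sums overlapped with elav/+ in both. Any part of these lists in the P450 differences was not tested.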

How the data were processed

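RNA of fly heads of 3 genotypes was measured on 15 arrays, 5 per genotype, grouped by the strain labels. The authors deposited log2 intensities, 1 per probeset and array, made by RMA (background correction, quantile normalization and summarization). The submitters' processing notes name oligo 1.44.0. Quantile normalization hides a change shared by most transcripts. Raw scans were not used.

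The 15 arrays were fitted together, as deposited, with limma 3.58.1 (lmFit, then contrasts.fit and eBayes, in R 4.3.3). P-values of the 16322 probesets were adjusted by Benjamini-Hochberg and called at 0.05. The number of arrays limits the precision. Exact two-sided permutation tests used the 252 divisions of 10 arrays. The fit was tested on simulated data with known changes.

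Symbols came from the platform annotation: 13441 probesets had 1 symbol, 555 several and 2326 none, and 13064 were matched by Entrez identifier to RefSeq, whose Release 6 table gave the gene order. The genome build of the array files is not known, so no coordinates are printed. For a gene with several probesets the one with the highest mean was used. No sequences are printed.

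The P450 members, the families and the lists (redox partners, ecdysone synthesis, P450 regulators, glutathione S-transferases, UDP-glycosyltransferases and markers of fat body, oenocyte, antenna, photoreceptor, neuron, glia, muscle, gut, Malpighian tubule and sex) were chosen with earlier results of these data known. Named by rule were every called P450 gene, the gene furthest from 0 in a family without a call, the brightest and dimmest member of each family, called members of the first 3 lists, Cpr and Clic. Other genes were named after their values were seen.

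Alternatives were a fit of the 2 compared genotypes, a replicate block, eBayes with an intensity trend or robust, array weights, dropping the dimmest 25% of probesets, a second quantile normalization, median centring, an adjusted p of 0.01, a 1.5-fold change, the mean of a gene's probesets, adjustment over 1 probeset per gene, leaving out each array, and, added after the data were seen, counting the cyclophilins and the Cyp12d1 probeset of both copies as members.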

Additional observations from a re-analysis of the deposited data

Results flagged for a closer look

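Among the 80 P450 genes and 7 other named genes, 12 of 261 groups of 5 values (4.60%) held 1 array apart from the other 4, with a gap of more than 0.71 of the group's whole range (Dixon's limit for 5 values). Chance alone marks about 1 in 20. All 12 were P450 genes, as were 80 of the 87 genes examined.

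In elav/+ Cyp305a1 measured 7.53 in replicate 3, with the others between 7.29 and 7.31, and its call in elav/v105975 was lost without that array. Cyp4d21 measured 6.97 in replicate 5, with the others between 5.60 and 5.88. Cyp28c1 measured 5.77 in replicate 1 (others 5.95 to 6.02) and Cyp301a1 5.30 in replicate 3 (others 5.01 to 5.09). In replicate 5 Cyp4s3 measured 6.56 (others 6.32 to 6.38) and Cyp308a1 4.62 (others 5.08 to 5.19).

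In v105975/+ Cyp4p2, a dim probeset, measured 3.36 in replicate 3 (others 2.92 to 3.03). Cyp4d1 measured 4.38 in replicate 2, and the other 4 arrays had the same value, 4.62.

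In elav/v105975 replicate 2 Cyp6g1 measured 8.14 (others 8.32 to 8.38) and Cyp4ad1 4.22 (others 3.87 to 3.95). Cyp4d14 measured 3.36 in replicate 4 (others 3.55 to 3.60), and Cyp4aa1 measured 5.81 in replicate 5 (others 6.49 to 6.65).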

How the results depend on the processing

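No called difference of a gene named by rule changed direction under any alternative. The count of called P450 genes stayed between 15 and 22 in elav/v105975 and between 13 and 20 in v105975/+ over the settings that left out no single array and asked for no fold change. With a 1.5-fold change required it was 8 (4 lower) and 9 (5 lower). Leaving out 1 array gave 16 to 20 and 14 to 19, and 15 of the 19 and 14 of the 17 calls passed in each such fit. Between elav/v105975 and v105975/+ the count was 0 to 1, the latter without v105975/+ replicate 2.

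Without 1 array the median log2 fold change of the P450 genes ranged from -0.04 to -0.01 in elav/v105975, from -0.03 to 0.01 in v105975/+ and from -0.019 (without elav/v105975 replicate 4) to 0.051 between the hairpin genotypes. The elav/v105975 median stayed slightly below 0, and the medians of the other comparisons crossed 0. Clic ranged from -0.79 to -0.73 in elav/v105975, from -0.25 to -0.20 in v105975/+ and from -0.57 to -0.51 between them. Clic in v105975/+ (-0.22) was not called at an adjusted p of 0.01 or at 1.5-fold, nor between the hairpin genotypes (-0.54) at 1.5-fold.

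The titles number the arrays 1 to 5 in each genotype. Same-numbered arrays correlated at -0.08 to 0.18 after subtraction of the genotype means (2 of 15 pairs over 0.1), and 1 of 15 arrays correlated best with its own number, so the numbers were not taken as pairs. With the replicate block limma called 22 P450 genes in elav/v105975 and 20 in v105975/+, including the 19 and 17 called without it, and 0 between the hairpin genotypes. Clic in v105975/+ (-0.22) then had an adjusted p of 0.0614. The genes added under the block were Cyp304a1 (0.0169, elav/v105975), Cyp305a1 (0.0336, v105975/+), Cyp4aa1 (0.0242 and 0.0103) and Cyp4d21 (0.0180 and 0.0181). Counting the cyclophilins and the probeset of both Cyp12d1 copies as members gave 20 and 18 of 83. Cyp6a21 in elav/v105975 had an adjusted p above 0.05 in the fit of 10 arrays (0.0769), with robust eBayes (0.0517), array weights (0.0558), a second quantile normalization (0.0568), median centring (0.0632) and adjustment over 1 probeset per gene (0.0511). Dim probesets limit what could be measured for 13 of the 80 genes.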

Other observations

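The cyclophilin genes that share the letters of the P450 symbols gave no call in limma. Cyp1 differed from elav/+ by -0.07 on the log2 scale in elav/v105975 (adjusted p = 0.402) and by -0.08 in v105975/+ (adjusted p = 0.365), and Cyp40 differed by 0.05 in elav/v105975 (adjusted p = 0.593).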
